A study of Rattus norvegicus with 9 samples.

Results

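Translation factors are the soluble proteins that guide the ribosome through initiation, elongation and termination. They were taken here as the probe sets listed with a single gene symbol that begins with Eif1 to Eif6 or with Eef1 or Eef2, or that is Etf1, and the kinases named Eif2ak were left out. That gave 57 genes, of 14218 that the array's annotation lists with a probe set of their own, and 89 probe sets, of 31099 in the table. Of these, 78 passed a filter on low mean signal and were tested, and each of the 57 genes kept at least 1 tested probe set. The other 11 probe sets, of 9 genes, read between 4.04 and 5.45 on the log2 scale on every array. A further 5 probe sets are listed with more than 1 gene (Eif3e with Eif3el1, Eif5 with a pseudogene, and Eif2s3 with Eif2s3y) and are described apart.

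In initiation, eIF2 carries the initiator tRNA to the small ribosomal subunit, eIF3 holds the complex together, and the eIF4 proteins load it onto the capped end of the mRNA. The exchange factor eIF2B recharges eIF2 with GTP, and it is the step that stress signalling through eIF2 phosphorylation slows. The eIF4E binding proteins compete with eIF4G for the cap-binding protein and are released from it by mTOR signalling, while in elongation eEF1A delivers aminoacyl-tRNA and eEF2 moves the ribosome along, under restraint by the kinase Eef2k. In neurons these controls also act locally at synapses.

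RNA labelled as from hippocampal neurons of rat (Rattus norvegicus) was hybridised to 9 Affymetrix-type arrays. The 3 groups have 3 arrays each: a control in artificial cerebrospinal fluid alone, for which the labels give no exposure time, and ketone bodies for 1 h or for 6 h. The labels give neither strain, age, dose nor the compounds meant by ketone bodies, and they do not say that replicates are separate animals, so each p measures only the spread between these arrays, which may be technical. Values below are log2(signal + 16) after quantile normalisation unless stated, and the number of arrays limits their precision.

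Of the 7 neuron marker genes all had tested probe sets, with Snap25, a vesicle fusion protein, at 12.62 in control. Glial markers were also well above the filter's level of 5.21, with the astrocyte filament Gfap at 10.96 and myelin basic protein Mbp at 12.62, so transcripts of glia were in the RNA as well. Marker signal was summed on the deposited values, before normalisation, so the sums include differences in array brightness. Excitatory neuron markers had 8 tested probe sets of 4 genes, several of them of Camk2a. Their log2 sum ran from 12.59 to 12.78 in control, 12.3 to 12.59 at 1 h and 12.22 to 12.51 at 6 h. Of the normalised differences 0 of 8 were above 0 at both times and none passed limma's threshold (4 and 3 at an unadjusted p under 0.05). Microglial markers ran from 9.41 to 9.66, from 9.71 to 9.83 and from 9.57 to 9.81 over 5 probe sets, with 3 and 4 of 5 differences above 0, led by Aif1 (0.75 ± 0.17 at 1 h), while Cx3cr1 had -0.39 ± 0.21. Endothelial markers ran from 8.99 to 9.11 in control, from 9.12 to 9.28 at 1 h and from 9.18 to 9.36 at 6 h over 4 probe sets, with 3 and 4 of 4 differences above 0. None of these passed by limma (2 and 1 positive at an unadjusted p under 0.05 for microglia, 0 for endothelium). Other lists also had differences below 0. At 1 h and 6 h, 0 and 1 of 11 were above 0 for neuron markers and 1 and 2 of 4 for inhibitory neurons. For oligodendrocytes they were 1 and 2 of 8 and for astrocytes 3 and 4 of 10, beside 55.3% and 53.8% of all probe sets. In such a mixture fewer cells of a type and less RNA per cell cannot be told apart. Arrays 3 of the 1 h group and 1 of the 6 h group lay farthest from the median on the first principal component. Their log2 ratios of the 3' to the 5' beta-actin control probe sets were 2.0 and 2.55. By group the ratio was 1.35 ± 0.08 (SD, n = 3) in control, with a range from 1.26 to 1.41, 1.84 ± 0.40 at 1 h (1.38 to 2.13) and 1.82 ± 0.77 at 6 h (1.02 to 2.55), so it was higher on average in both ketone groups. The same ratio for the Gapdh control probe sets was 0.13 ± 0.11 in the control group, 0.11 ± 0.04 at 1 h and 0.19 ± 0.23 at 6 h. It was thus not higher on average at 1 h, and at 6 h array 1 had 0.46. Such a ratio goes up when RNA breaks down or when labelling stops short of the 5' end. The part of these differences in the results below was not tested, except where values without those 2 arrays are given.

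The first question was which translation factors differed after 1 h of ketone bodies. None did by the test across all probe sets. By limma with Benjamini-Hochberg adjustment, 0 of 78 member probe sets were higher and 0 lower at an adjusted p of 0.05, where 0.0215% of all 18625 tested probe sets were higher and 0.0107% lower. At an unadjusted p under 0.05, 4 members had positive and 2 negative log2 differences, which is 5.13% and 2.56% of members beside 6.68% and 4.67% of all probe sets. When arrays were centred on their medians in place of quantile normalisation the counts were 18 and 1 (23.1% and 1.28% of members), beside 11.3% and 2.68% of all probe sets, whose median was then 0.096. On the deposited values they were 7 and 2 (8.97% and 2.56%), beside 5.88% and 5.93% of all. Without array 1 of the 6 h group, which enters the shared estimate of spread, they were 5 and 7 (6.41% and 8.97%), beside 7.93% and 7.01% of all. The median difference of the members was 0.072, beside 0.029 for all probe sets, and 68 of 78 (87.2%) were smaller than 0.3 in either direction, beside 80.8% of all. The median 95% interval of a member reached 0.3 to either side of its estimate.

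**Figure D1:**
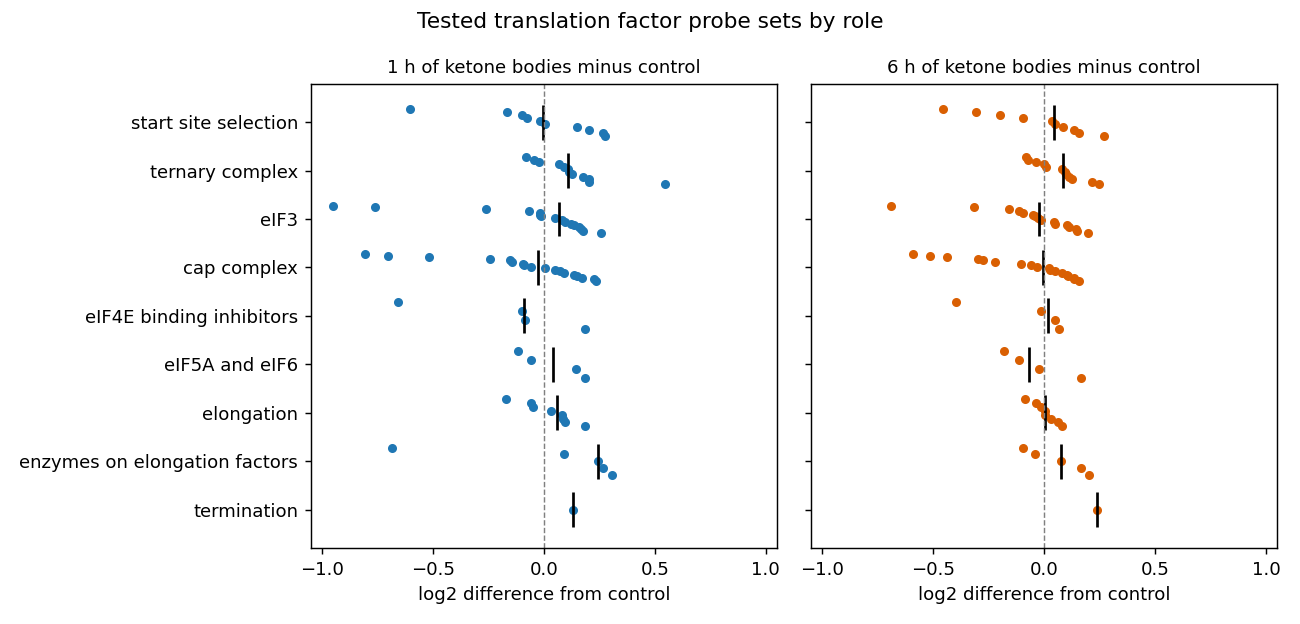
Log2 differences from control (horizontal axis) of the 78 tested translation factor probe sets at 1 h (left) and 6 h (right), grouped by role, with 1 point per probe set and a black bar at each role's median. Most points lie within 0.3 of 0 at both times, and the points at the far left at 1 h belong to Eif3c (-0.95), Eif4e3 (-0.81), Eif3a (-0.76) and Eif4g1 (-0.70).

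Among the carriers of the initiator tRNA and their exchange factor, 9 of 12 differences at 1 h were above 0, with a median of 0.11, beside 55.3% above 0 over all probe sets. The smallest p of any member belonged to Eif2b3, the gamma subunit of eIF2B. Its values were 7.27, 7.19 and 7.09 on the control arrays, 7.70, 7.63 and 7.84 at 1 h and 7.25, 7.65 and 7.29 at 6 h. All 1 h values lay above all control values, while at 6 h only array 2 lay clearly above them. The log2 difference at 1 h was 0.54 ± 0.13 (SE, n = 3 arrays per group throughout), a fold of 1.46 on the scale of signal + 16, with limma's adjusted p = 0.299. At 6 h it was 0.21 ± 0.13 (adjusted p = 0.987).

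The other eIF2B subunits also had positive differences at 1 h, none past the adjusted threshold. Over Eif2b1 to Eif2b5, a group singled out after its values were seen, all 6 probe sets had positive differences, from 0.09 to 0.54 with a median of 0.19. Eif2b2, the beta subunit, had 0.21 ± 0.10, with control values of 8.14, 8.20 and 8.05 against 8.31, 8.21 and 8.48 at 1 h, so the groups just failed to overlap. Eif2b5, the catalytic epsilon subunit, had 0.20 ± 0.16 in one probe set and 0.18 ± 0.18 in the other. At 6 h the 6 probe sets ran from -0.071 to 0.25 with a median of 0.12.

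The 3 subunits of eIF2 itself stayed close to their control levels. Eif2s1, the alpha subunit that the stress kinases phosphorylate, read 9.55, 9.32 and 9.57 in control, 9.53, 9.46 and 9.32 at 1 h and 9.30, 9.47 and 9.43 at 6 h, so the groups overlapped. Its difference was -0.043 ± 0.102 at 1 h, with a 95% interval from -0.27 to 0.18. Eif2s2 had 0.11 ± 0.10 and Eif2s3 -0.021 ± 0.110. The Y-linked copy Eif2s3y had 0.069 ± 0.249, and its probe set may share sequence with Eif2s3, so its level is uncertain.

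Of the factors grouped as selecting the start codon or joining the subunits, 5 of 10 differences at 1 h were above 0 (median -0.005). The group took in Eif1ad by its symbol (0.27 ± 0.13 at 1 h), which is described below only as an eIF1A-domain protein. Eif1b, a paralog of the start codon selection factor eIF1, read 9.95, 9.95 and 9.71 in control against 9.99, 10.01 and 10.21 at 1 h, without overlap, for a difference of 0.20 ± 0.10. Eif1a, with 4 tested probe sets, gave differences from -0.16 to 0.28, so its probe sets disagreed in sign. The GTPase Eif5b, which joins the large subunit, had 0.007 ± 0.146 and -0.016 ± 0.135 in 2 probe sets and -0.60 ± 0.45 in the third.

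For eIF3, the largest initiation factor, 9 of 16 differences at 1 h were above 0 (median 0.066). Eif3h, a regulatory subunit, read 10.60, 10.53 and 10.56 in control, 10.74, 10.78 and 10.71 at 1 h and 10.69, 10.75 and 10.58 at 6 h. All 1 h values lay above all control values, and the difference was 0.17 ± 0.07 (adjusted p = 0.397 by limma). Eif3k, an accessory subunit, read 9.25, 9.40 and 9.13 in control against 9.41, 9.60 and 9.54 at 1 h, with a difference of 0.26 ± 0.11 (adjusted p = 0.437 by limma). Its other probe set gave 0.17 ± 0.15.

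Eif3a, the scaffold subunit, pointed the other way. The brighter of its 2 tested probe sets read 9.15, 9.07 and 9.14 in control, 8.81, 8.85 and 8.93 at 1 h and 9.0, 9.03 and 9.05 at 6 h. The groups did not overlap in any of the 3 comparisons, and the 6 h values lay between the others. The difference was -0.26 ± 0.08 at 1 h (adjusted p = 0.359), -0.095 ± 0.082 at 6 h (adjusted p = 0.987) and 0.16 ± 0.08 for 6 h against 1 h (adjusted p = 0.996), all by limma. Its other probe set, near the filter's level, overlapped in all 3 comparisons, with -0.76 ± 0.54 at 1 h and 6 h values of 4.12, 6.29 and 6.35. Without the 2 arrays named above it had -0.48 ± 0.26 at 1 h and 0.57 ± 0.26 at 6 h. Eif3d, Eif3i and Eif3f had positive differences of 0.14 ± 0.09, 0.16 ± 0.10 and 0.052 ± 0.065 at 1 h.

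**Figure D2:**
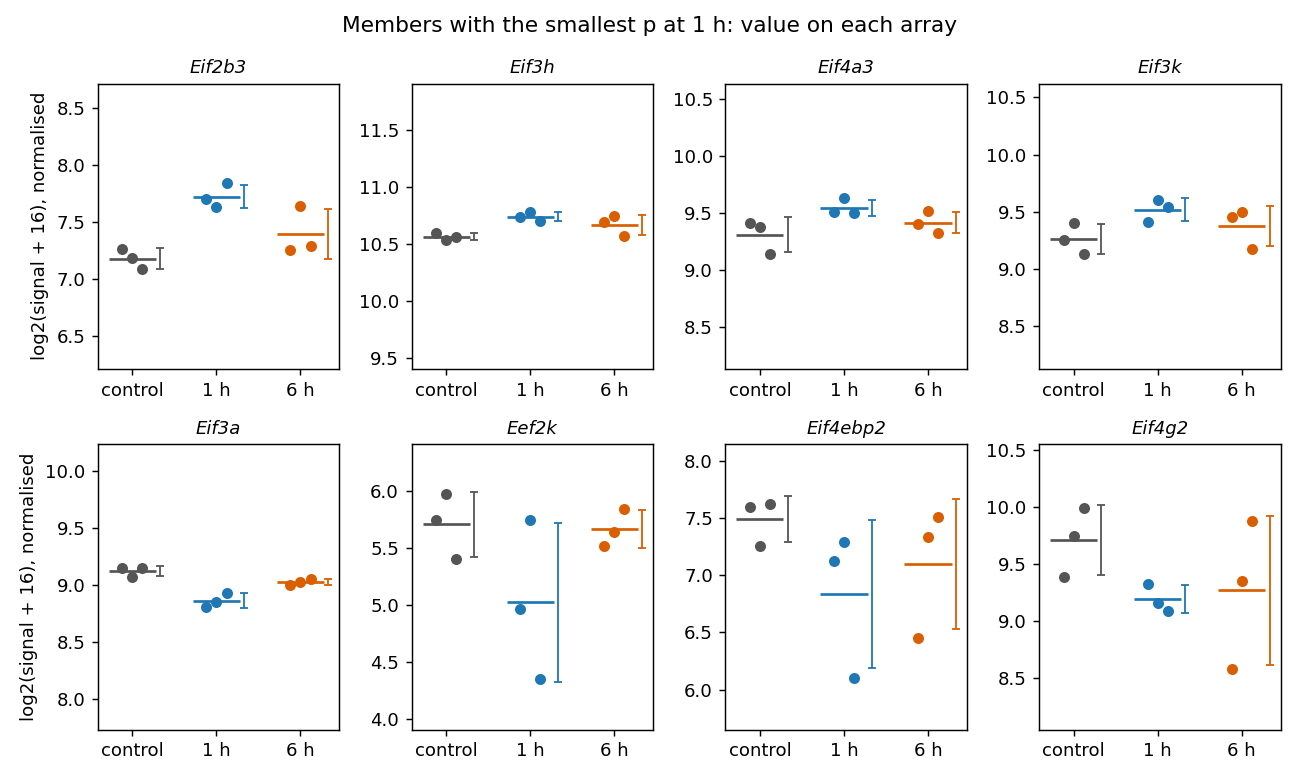
Normalised log2(signal + 16) on each array (vertical axis, each panel spanning the same range of log2 units) for the 8 member probe sets with the smallest p at 1 h, 4 in each direction. Points are arrays, horizontal lines group means and bars the SD of 3 arrays. The 1 h points of Eif2b3 all lie above its controls and those of Eif3a all below, while Eef2k, Eif4ebp2 and Eif4g2 spread widely within a group.

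The eIF4 factors other than the inhibitors, labelled cap complex in the figure, were split at 1 h. Of their differences 9 of 18 were above 0, with a median of -0.027. They include Eif4a3 and Eif4g2, whose roles described below lie elsewhere. Eif4a3, the helicase of the exon junction complex, read 9.41, 9.38 and 9.14 in control against 9.50, 9.63 and 9.49 at 1 h, without overlap (0.23 ± 0.10, adjusted p = 0.424 by limma). Its relatives in cap-dependent initiation, Eif4a1 and Eif4a2, had 0.23 ± 0.15 and -0.092 ± 0.070. With centring the value of Eif4a2 turned to 0.17 ± 0.09, and on the deposited values to 0.066 ± 0.081, so its direction depends on the scaling. The cap-binding protein Eif4e read 10.16, 10.38 and 10.17 in control and 10.22, 9.95 and 10.27 at 1 h in its brighter tested probe set, for a difference of -0.088 ± 0.134. Its other tested probe set had 0.004 ± 0.183.

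Eif4g2, an eIF4G relative that lacks the eIF4E binding site and serves cap-independent initiation, has 3 tested probe sets that differ. One read 9.39, 9.75 and 9.99 in control, 9.33, 9.16 and 9.09 at 1 h and 8.59, 9.35 and 9.88 at 6 h. Its 1 h values all lay below control, and the difference was -0.52 ± 0.28 (adjusted p = 0.491 by limma). The others gave -0.14 ± 0.10 and -0.058 ± 0.116. The scaffold Eif4g1 likewise had 0.17 ± 0.30 in one probe set and -0.70 ± 0.41 in another.

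The inhibitors that bind eIF4E showed no common direction at 1 h, where 1 of 4 differences was above 0. Eif4ebp1 read 6.53, 6.65 and 6.16 in control, 6.57, 6.73 and 6.61 at 1 h and 6.45, 6.62 and 6.41 at 6 h, which overlap. Its difference was 0.19 ± 0.15 at 1 h, with a 95% interval from -0.14 to 0.52, and 0.049 ± 0.149 at 6 h. Eif4ebp2, the main form in brain, read 7.60, 7.26 and 7.63 in control, 7.12, 7.29 and 6.10 at 1 h and 6.45, 7.34 and 7.51 at 6 h.

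The low values of Eif4ebp2 were those of array 3 at 1 h and array 1 at 6 h. The differences were -0.66 ± 0.34 (adjusted p = 0.481 by limma) at 1 h and -0.39 ± 0.34 (adjusted p = 0.987) at 6 h. Without those 2 arrays they were -0.28 ± 0.15 and -0.068 ± 0.150. Eif4ebp3 had -0.083 ± 0.139 and -0.013 ± 0.139. The transport protein Eif4enif1, which represses cap-bound mRNA, had -0.098 ± 0.125 and 0.066 ± 0.125. Eif5a, which relieves stalled ribosomes and takes part in termination, had 0.14 ± 0.10 and -0.022 ± 0.102, and Eif6, which keeps the ribosomal subunits apart, 0.18 ± 0.14 and 0.17 ± 0.14.

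Elongation factors, grouped here by gene symbol and with Eef1e1 counted among them, lay close to their control levels. Over 8 tested probe sets the differences ran from -0.17 to 0.19 at 1 h (median 0.058) and from -0.086 to 0.080 at 6 h (median 0.004). Eef1a1, the eEF1A form of most tissues, read 12.16, 12.11 and 12.17 in control, 12.14, 12.12 and 12.05 at 1 h and 12.04, 12.20 and 12.17 at 6 h. Its difference at 1 h was -0.048 ± 0.057, with a 95% interval from -0.17 to 0.078. This gene has many processed copies and its probe sets may share sequence with them, so its level is uncertain. Eef1a2, the form of neurons and muscle, read 11.26, 11.25 and 11.15 in control and 11.22, 10.68 and 11.25 at 1 h, where the single low value was array 2 (-0.17 ± 0.13). Without that array the difference was 0.018 ± 0.081, and with centring it was 0.06 ± 0.16.

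Eef2, the translocase, had 0.083 ± 0.156 at 1 h and -0.038 ± 0.156 at 6 h. Its kinase Eef2k gave conflicting values. One probe set read 5.74, 5.97 and 5.40 in control, 4.97, 5.74 and 4.35 at 1 h and 5.51, 5.64 and 5.84 at 6 h, for a 1 h difference of -0.68 ± 0.30 (adjusted p = 0.437 by limma). The other tested one had 0.27 ± 0.29, and both lay near the filter's level of 5.21, where sizes depend on the pseudocount. Without the 2 arrays named above, the first probe set had -0.35 ± 0.26. Among methyltransferases that modify eEF1A, Eef1akmt1 read 7.54, 7.59 and 7.58 in control, 7.63, 8.04 and 7.78 at 1 h and 7.69, 7.98 and 7.64 at 6 h, above control without overlap at both times (0.24 ± 0.14 and 0.20 ± 0.14). The release factor Etf1, which recognises stop codons, had 0.13 ± 0.12 at 1 h and 0.24 ± 0.12 at 6 h.

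Counting groups that do not overlap, 12 of 78 members (15.4%) lay wholly above control at 1 h and 3 (3.85%) wholly below, beside 13% and 8.26% of all tested probe sets. Those above were Eif1b, Eif2b2, Eif2b3, one probe set of Eif2b5, Eif3d, Eif3h, Eif3i, Eif3k, Eif4a3, Eif4e2, Eef1d and Eef1akmt1. Those below were probe sets of Eif3a, Eif3c and Eif4g2. The share above was thus near that of the whole array.

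Several genes gave values that depended on the probe set. Of 17 genes with more than 1 tested probe set, 5 had mixed signs at 1 h and 5 had probe sets more than 0.5 apart. Their lowest values often fell on the same 2 arrays. Eif3c read 7.48, 7.84 and 8.43 in control, 7.42, 7.15 and 6.32 at 1 h and 5.77, 7.66 and 8.25 at 6 h in one probe set (-0.95 ± 0.55 at 1 h), and in the other it stayed between 9.46 and 9.67 on all 9 arrays (-0.067 ± 0.081). On array 3 at 1 h and array 1 at 6 h together, the mean was more than 0.5 below that of the other 7 arrays for 10 of 78 members (12.8%), beside 7.68% of all tested probe sets. These were probe sets of Eif3c (-1.70), Eif4e3 (-1.53), Eif3a (-1.50), Eif5b (-1.43), Eif4g1 (-1.30), Eif4ebp2 (-1.12), Eif3l (-0.90), Eif4g2 (-0.71), Eef2k (-0.68) and Eif4h (-0.52). Only 1 member, another probe set of Eif4g1, lay more than 0.5 above (0.59). Array 2 at 1 h had a beta-actin 3'/5' ratio of 2.13, beside 2.0 and 2.55 on those 2 arrays. In the same 10 probe sets it lay below all controls in 3 and within the control range in 7. Array 1 at 1 h, with a ratio of 1.38, lay below all controls in 7 of them and above all in 2. Array 2 at 6 h, with a ratio of 1.90, lay below in 1 and above in 2. Array 3 at 6 h, with a ratio of 1.02, lay below in 0 and above in 3. The part of RNA quality in these values was not tested. Without both arrays, Eif3c had -0.62 ± 0.27 at 1 h and 0.039 ± 0.268 at 6 h in the low probe set, and Eif5b -0.16 ± 0.18 and 0.044 ± 0.185.

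**Figure D3:**
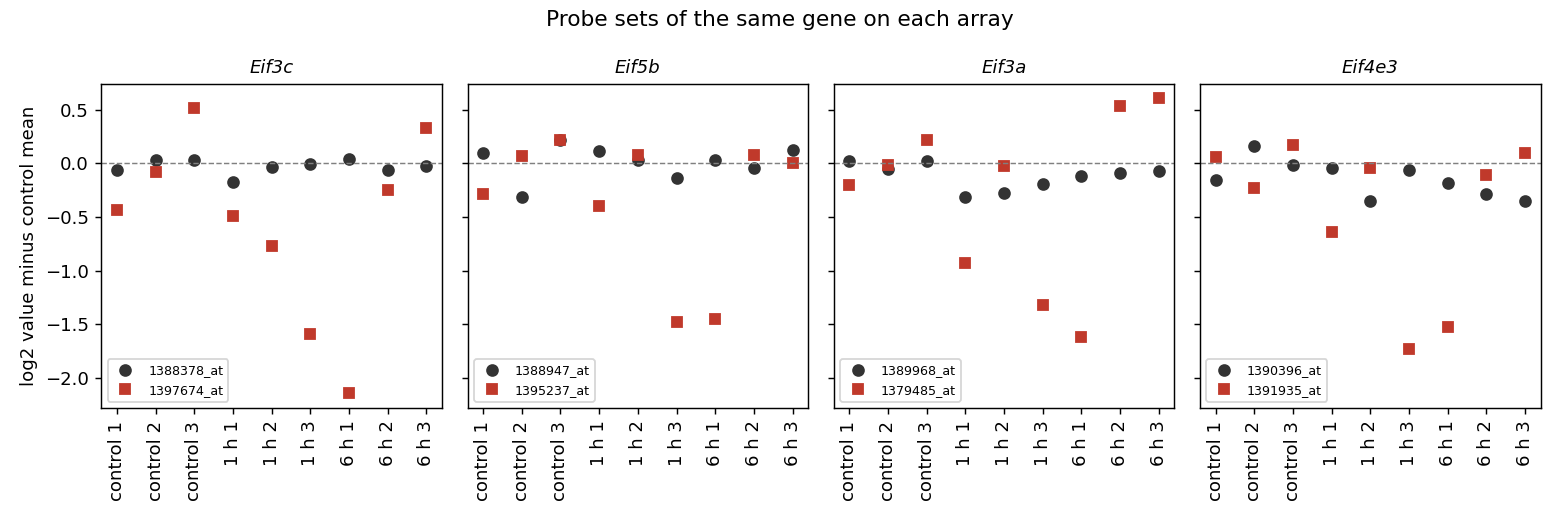
Log2 value minus the probe set's own control mean (vertical axis) on each of the 9 arrays (horizontal axis) for 2 probe sets of Eif3c, Eif5b, Eif3a and Eif4e3, shown as circles and squares. The squares fall lowest on array 3 at 1 h and array 1 at 6 h, where the circles stay within 0.5 of 0. The genes were chosen after their values were seen.

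The next question was whether translation factors differed after 6 h. By limma 0 of 78 members passed in either direction (lowest adjusted p = 0.987), where 0.0215% of all probe sets were higher and 0.00537% lower. At an unadjusted p under 0.05 there were also 0 members in each direction, beside 2.79% and 1.47% of all probe sets. The median difference was 0.017, beside 0.015 for all, and 42 of 78 differences were above 0 (53.8%, beside 53.8% of all). Of the members, 4 (5.13%) lay wholly above and 2 (2.56%) wholly below control, beside 6.05% and 3.15%. The members with the smallest p and positive differences were Eif1ad, an eIF1A-domain protein (0.27 ± 0.13), Etf1, Eif2b3 and Eif3d (0.15 ± 0.09). Eif1ad read 8.28, 8.17 and 7.91 in control, 8.20, 8.59 and 8.38 at 1 h and 8.35, 8.47 and 8.35 at 6 h, so its 6 h values lay above control without overlap. Etf1 read 8.02, 7.94 and 8.31 in control, 8.20, 8.33 and 8.14 at 1 h and 8.20, 8.42 and 8.37 at 6 h, and Eif3d 8.99, 8.87 and 8.86, then 9.08, 9.01 and 9.04, then 9.18, 9.03 and 8.95. Both overlapped with control at 6 h.

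On the negative side at 6 h were Eif4e3, an eIF4E relative (-0.27 ± 0.14), Eif4g3, an eIF4G relative (-0.30 ± 0.16), one probe set of Eif4g2 (-0.44 ± 0.28) and Eif5a2 (-0.18 ± 0.12), each with limma's adjusted p = 0.987. Eif4e3 read 6.61, 6.93 and 6.76 in control and 6.58, 6.48 and 6.42 at 6 h in that probe set, just without overlap. Eif4g3 read 8.62, 8.90 and 8.42 in control and 8.64, 8.15 and 8.26 at 6 h, which overlap. Eif5a2 read 8.34, 8.47 and 8.46 in control, 8.42, 8.15 and 8.52 at 1 h and 8.25, 8.11 and 8.37 at 6 h, which overlap too. The value of Eif4g2 rested on array 1 at 6 h. Without the 2 arrays named above it was -0.092 ± 0.195, and the other probe sets of the gene had -0.03 ± 0.10 and 0.11 ± 0.12. The 1 h and 6 h comparisons share their control arrays, so their values are not independent.

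The direct comparison of 6 h with 1 h does not use the controls. By limma 0 of 78 members passed (lowest adjusted p = 0.996), as did 0% of all probe sets in either direction. At an unadjusted p under 0.05 there was 1 member, Eif2b3, with -0.33 ± 0.13 (unadjusted p = 0.0328), beside 1.31% positive and 1.41% negative over all probe sets. Eef2k had 0.64 ± 0.30 in the probe set that read low at 1 h and -0.10 ± 0.29 in the other, and without the 2 arrays named above they had 0.39 ± 0.28 and -0.44 ± 0.31. Eef1akmt4, near the filter's level, read 5.30, 5.23 and 5.19 in control, 5.75, 5.60 and 5.28 at 1 h and 5.29, 4.73 and 5.41 at 6 h, for -0.40 ± 0.20. Eif4enif1 (0.17 ± 0.12), another probe set of Eif4g2 (0.17 ± 0.12), Eif5a (-0.17 ± 0.10) and a probe set of Eif3l (-0.15 ± 0.08) were the remaining ones with the smallest p. On the 1 h and then the 6 h arrays Eif4enif1 read 7.47, 7.56 and 7.59, then 7.95, 7.54 and 7.63, after 7.66, 7.69 and 7.57 in control. That probe set of Eif4g2 read 9.75, 9.93 and 9.96 in control, 9.63, 9.82 and 10.01 at 1 h and 10.14, 9.89 and 9.93 at 6 h. Eif5a read 10.74, 10.68 and 10.45, then 10.85, 10.85 and 10.61, then 10.48, 10.66 and 10.67, and Eif3l 9.83, 9.84 and 9.89, then 9.99, 9.83 and 10.04, then 9.80, 9.84 and 9.77. In each of these the 1 h and 6 h values overlapped. The median of the members was -0.015, beside -0.012 for all, and 32 of 78 differences (41%) were above 0, beside 47% of all. At 6 h one probe set of Eif3a lay wholly above its 1 h values (1.28% of members, beside 3.55% of all) and Eif2b1 wholly below (1.28%, beside 4.04%).

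Probe sets listed with more than 1 gene gave a like picture. The one for Eif3e and Eif3el1 had -0.014 ± 0.107 at 1 h. Those for Eif5 had 0.039 ± 0.094, -0.087 ± 0.187 and -0.62 ± 0.40, and the last read 9.08 on array 3 at 1 h and 8.92 on array 1 at 6 h beside 9.81 to 10.56 elsewhere. The one shared by Eif2s3 and Eif2s3y had -0.34 ± 0.39.

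Among 38 regulators of cytosolic translation, such as mTOR complex members, eIF2 kinases and poly(A)-binding proteins, 35 genes had 55 tested probe sets. By limma 0 passed in either direction in each comparison. At an unadjusted p under 0.05 there were 2 positive and 2 negative of these 55 at 1 h, beside 6.68% and 4.67% of all probe sets. At 6 h there were 1 and 2, beside 2.79% and 1.47%. The medians were -0.020 and -0.058, beside 0.029 and 0.015 for all. The widest difference belonged to Ppp1r15a, which directs a phosphatase to eIF2, with 0.80 ± 0.15 at 1 h (adjusted p = 0.236 by limma) and 0.95 ± 0.15 at 6 h (adjusted p = 0.141). Rictor, of mTOR complex 2, had -0.40 ± 0.14 and -0.35 ± 0.14, while Mtor itself had 0.038 ± 0.155 at 1 h. Of 10 mitochondrial translation factors, 8 genes had 10 tested probe sets. None of these passed by limma, with 1 positive and 0 negative at an unadjusted p under 0.05 at 1 h and 0 of each at 6 h. The shares of all probe sets are those just given. The medians of these factors were 0.15 and 0.087, beside 0.029 and 0.015 for all.

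Many mRNAs of the translation machinery begin with a run of pyrimidines, through which mTOR signalling controls their translation. RefSeq promoter windows on GRCr8 were found for 52 of the 57 genes (55 windows). An unbroken run of 8 or more C or T beginning with C on the gene's strand, within 20 bases before to 20 from the start site, was found in 13 windows (23.6%), beside 11.6% of all 33469 windows and 12.2% of those of single-gene probe sets on the array. The sequences show 4 of the members with such a run whose 1 h values are given above, and Eef1b2, an elongation factor with one (0.097 ± 0.066 at 1 h). Eif2b3 and Eif3a, which have none, are shown as well. Each sequence spans 40 bases, 5′ to 3′ on the gene's strand, and the capitals mark the run. The annotated start follows the first 20 bases. The runs of Eif3k, Eif3d and Eif3i end before it, so they lie outside the mRNA as annotated. Those of Eif3f and Eef1b2 lie after it.
Eif3k (chr1:93397468-93397507, - strand): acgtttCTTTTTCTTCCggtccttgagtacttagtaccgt
Eif3d (chr7:111432721-111432760, - strand): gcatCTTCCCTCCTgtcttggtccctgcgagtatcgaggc
Eif3i (chr5:147226891-147226930, - strand): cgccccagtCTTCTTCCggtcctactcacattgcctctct
Eif3f (chr1:172369042-172369081, + strand): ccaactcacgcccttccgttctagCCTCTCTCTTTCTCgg
Eef1b2 (chr9:72074071-72074110, + strand): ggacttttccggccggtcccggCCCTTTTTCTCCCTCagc
Eif2b3 (chr5:135728822-135728861, + strand): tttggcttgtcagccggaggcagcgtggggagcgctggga
Eif3a (chr1:269919006-269919045, - strand): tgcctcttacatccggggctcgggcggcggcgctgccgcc

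A match describes these letters at an annotated start and shows no site in use. The members shown with a run all had positive differences at 1 h. Of those with a run that are not shown, Eef1akmt1, Eef1g, Eif2s3y and Eif4h were positive. Negative were Eif2s3 (-0.021), Eif2a (-0.078), Eif3m (-0.018) and Eif4g3 (-0.24). The 13 genes with a run had 15 tested probe sets, of which 11 had positive differences at 1 h and 4 lay wholly above control, with a median of 0.093. The 39 genes without one had 56, of which 29 were positive and 6 lay wholly above, with a median of 0.005. They include genes with a shorter run, such as Eef1a1 and Eef2, whose runs beginning with C fall short of 8 letters. The division is therefore by this length and not by the presence of any pyrimidine run. Over all tested probe sets 55.3% were positive at 1 h and 13% lay wholly above, with a median of 0.029. At 6 h the medians were 0.064 with a run and -0.012 without, beside 0.015 for all. This division was looked at after the values were known and was not tested. The sequence CACGTG, bound by Myc and related factors and the same on both strands, was in 12 of 55 windows of 300 bases (21.8%), beside 6.42% of all windows and 8.65% of those on the array. The median GC content was 60.3%, 51.7% and 59.7%.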

How the data were processed

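The deposited table holds linear signal intensity per probe set for 9 arrays. How the authors computed it (software, settings, filters) is not given in the sources used here. The members, roles and lists were chosen with earlier results of these data known.

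Values were taken as log2(signal + 16) and quantile normalised. After removal of 57 control probe sets, a minimum on the mean at the 40th percentile (5.21 on the log2 scale) kept 18625. Fits used limma 3.58.1 (R 4.3.3) over all groups together, with 6 residual degrees of freedom, an intensity trend, 2-sided tests and Benjamini-Hochberg adjustment over all probe sets at 0.05. Gene names came from the platform annotation, and all 89 member probe sets matched a rat gene table by Entrez number, with 0 symbols changed. By rule, the 4 members with the smallest p in each direction of each comparison are named with the array values of the groups compared. A list of central factors is given with at least a difference at 1 h. For some of these, such as Eif4e, Eif4g1 and Eef1a1, the difference at 6 h is not given singly. Other members are given by counts or where their role, their probe sets or non-overlapping groups are described. The steps were tested on simulated data. A comparison of protein sequences was planned and not made here. Alternatives are given in the closing section.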

Additional observations from a re-analysis of the deposited data

How the results depend on the processing

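By limma 0 members passed an adjusted p of 0.05 in any of the 3 comparisons under any of the 20 alternatives: no normalisation (deposited values), array medians set equal (centring), pseudocounts of 1 and 64, a filter at the 60th percentile or none, a replicate block, array weights, the 3'/5' ratio as a covariate, omission of the 2 arrays farthest on the first principal component, only the brightest probe set of each gene, and omission of each of the 9 arrays in turn. The covariate was the mean of the beta-actin and Gapdh ratios. The counts at an unadjusted p under 0.05 and the medians did change, and the cause was not tested. At 1 h the count of positive differences, 4 as reported, was 7 with deposited values, 18 with centring and 2 with the 3'/5' covariate. The last is 2.56% of members, beside 5.41% of all probe sets, and the shares for the others are given above. The count of negative ones, 2 as reported, was 1 with centring, a pseudocount of 64, no filter, the 60th percentile or the covariate, and 5 with array weights. With array weights that is 6.41% of members, beside 7.04% of all probe sets. For the counts of 1 it is 1.12% to 1.49%, beside 2.68% to 4.96% of all. The 1 h median of 0.072 became 0.176 with centring, where the median of all probe sets was 0.096, and 0.052 with no filter. Centring also turned Eif4a2 at 1 h from -0.092 to 0.17. Of 1642 values of named members recomputed under the alternatives, 124 changed sign, of which 4 started more than 1 SE from 0 (Eif4a2 and Eef1a2 at 1 h, under 2 alternatives each). Only that of Eif4a2 under centring was more than 1 SE from 0 on both sides, and it alone is counted here as turned. None of the 1642 passed limma's adjusted p of 0.05. At 6 h the 0 positive differences became 2 with centring or array weights and 1 with the covariate or without the 2 arrays, and the 0 negative ones 1 with deposited values, array weights or without the 2 arrays. These counts are 1.28% or 2.56% of members. Under the same alternatives 1.99% to 3.91% of all probe sets were positive and 2.22% to 2.75% negative. The 6 h median of 0.017 became 0.104 with centring, 0.038 with the covariate or without the 2 arrays, and 0.047 with 1 probe set per gene. For 6 h against 1 h the 0 positive differences became 1 with the replicate block, without the 2 arrays or with 1 probe set per gene, and 3 with array weights, the 1 negative became 0 with the replicate block, and the median of -0.015 became -0.056 with centring. The count with array weights is 3.85% of members, beside 3.38% of all probe sets. The positive counts of 1 are 1.28% to 1.75%, beside 1.47% to 2.49% of all.

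Leaving out each array in turn gave 2 to 5 positive and 1 to 7 negative differences at 1 h, with medians from 0.036 to 0.074. It gave 0 to 3 positive and 0 to 4 negative ones at 6 h, with medians from -0.003 to 0.038, and 0 to 2 of each for 6 h against 1 h, with medians from -0.053 to 0.014. The highest counts came without array 1 of the 6 h group (7 negative at 1 h, 3 positive at 6 h) and without array 3 of the 6 h group (4 negative at 6 h). In that order these were 8.97%, 3.85% and 5.13% of members, beside 7.01%, 2.74% and 4.67% of all probe sets. The main fit did not treat the replicate numbers as pairs. Deviations from the group mean correlated at -0.36 to 0.539 between same-numbered arrays of different groups, and 3 of 9 pairs were over 0.1. Between arrays with different numbers they correlated at -0.435 to 0.529. With 3 arrays per group these values cannot decide whether the numbers pair the arrays. With the replicate block, as in the main fit, 0 members passed limma's adjusted threshold, so that count does not bear on pairing.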
